A study of Mus musculus with 7 samples.

Results

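The mouse miR-297, miR-466, miR-467 and miR-669 families are encoded mostly by a dense block of hairpins inside an intron of Sfmbt2, a Polycomb group gene that in mouse is imprinted and expressed from the paternal allele. The block is particular to rodents, is best known from placenta and embryonic stem cells, and its mature products are rich in alternating U and G or C and A. Mature miRNAs are loaded into Argonaute proteins such as Ago2, where the seed near the 5′ end pairs with target mRNAs, and Ago2 complexes also circulate in plasma. Members were taken by name, as every counted miRNA of these 4 families with any letter and either arm, which gave 14 of the 640 miRNAs counted.

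Small RNA bound to Ago2 was sequenced from plasma of adult male C57BL/6JOlaHsd mice after status epilepticus (SE), evoked by kainic acid injected into the amygdala, or after vehicle (PBS) injection as control. Midazolam or lorazepam, benzodiazepines that curb seizures, was given after SE, and whether control mice received it is not given in the sources used here. Each library was made from a pool of 10 mice, and there was 1 library for each of control 4 h, 8 h and 24 h and SE 4, 8 and 24 h and 2 weeks, so no time-point had a replicate. The 2-week SE library was compared with control 24 h, as the study did, and these comparisons at 24 h and 2 weeks therefore share 1 control library. Library totals were 2043220, 3529563 and 3412752 counts in control 4 h, 8 h and 24 h. They were 5405357, 3166964, 3718313 and 2541062 in SE 4, 8 and 24 h and 2 weeks.

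The cluster was barely represented among Ago2-bound plasma miRNAs. Its 14 members held 1445 of 23817231 counts over the 7 libraries, a share of 0.00607%. Control 24 h supplied 51.4% of these counts, and without it the share was 0.00344% (702 of 20404479 counts). At least 1 count was found for 1, 2 and 4 members in control 4 h, 8 h and 24 h, and for 5, 1, 8 and 4 members in SE 4, 8 and 24 h and 2 weeks. Of 98 values (14 members in 7 libraries), 73 were 0 and 3 were a single count. No member was found in all 7 libraries, against 24.4% of all 640 miRNAs, and 10 of 14 members (71.4%) were found in 1 library only, against 34.1% of all miRNAs. Counts scaled to a library total of 1000000 (CPM) reached 50 in at least 1 library for 1 member, miR-669a-5p, or 7.14% of members, against 31.7% of all miRNAs.

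Summed over members, the counts were 1 in control 4 h and 126 in control 8 h. In control 24 h there were 486 counts of miR-669a-5p and 257 of other members. The sums were 152, 52, 245 and 126 in SE 4, 8 and 24 h and 2 weeks. Control 24 h stood above every other library and control 4 h below every other library. The share in control 24 h was 0.0218% (95% Wilson interval 0.0203 to 0.0234%), and in control 4 h it was 4.89e-05% (8.64e-06 to 0.000277%). Between these lay SE 24 h at 0.00659% (0.00581 to 0.00747%) and SE 2 weeks at 0.00496% (0.00417 to 0.00590%), whose intervals overlapped by a narrow margin. The share was 0.00357% (0.00300 to 0.00425%) in control 8 h and 0.00281% (0.00240 to 0.00330%) in SE 4 h, whose intervals also overlapped. SE 8 h had 0.00164% (0.00125 to 0.00215%), below SE 4 h beyond the intervals. Those of control 8 h and SE 2 weeks overlapped as well. These intervals cover counting error only and assume independent reads. Amplified reads are not independent molecules, so the intervals are too narrow and do not by themselves separate libraries.

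**Figure D1:**
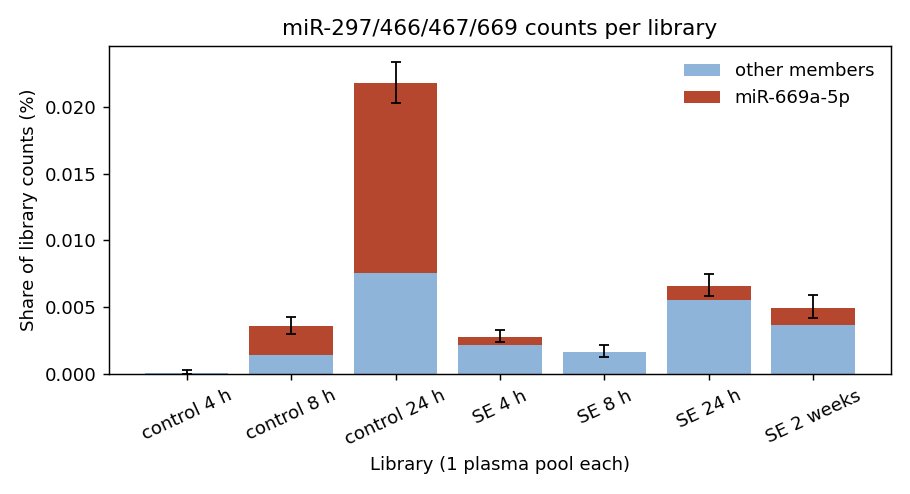
Share of all counts (%) held by miR-669a-5p (red) and by the other 13 members (blue) in each of the 7 libraries, with 95% Wilson intervals of the sum as error bars. Control 24 h reaches 0.0218%, of which miR-669a-5p makes up 65.4%, and control 4 h is close to 0.

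In each library the low counts gathered around a typical value well above 1, here called the low-count mode. Apart from these, 60 miRNAs (9.38% of all), 3 of them members, never exceeded 1 count in a library. This mode was 102, 60.2 and 55.1 counts in control 4 h, 8 h and 24 h, and 37.6, 51.8, 45.2 and 33.1 counts in SE 4, 8 and 24 h and 2 weeks. Members sat almost entirely at that level. Of their 22 values above 1 count, 19 were under 1.5 times the mode of their library (86.4%, against 39.5% of such values over all miRNAs), 2 were between 1.5 and 2 times, and 1 was higher. The median was 0.997 times the mode for members and 2.37 times for all miRNAs. The single higher value was miR-669a-5p in control 24 h, at 8.82 times the mode. On the CPM scale the mode was 50.1 in control 4 h, 17.1 and 16.1 in control 8 h and 24 h, 6.95 in SE 4 h and 16.4, 12.1 and 13.0 in SE 8 h, 24 h and 2 weeks. The typical low count thus stood for a higher CPM in control 4 h than in the other 6 libraries.

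**Figure D2:**
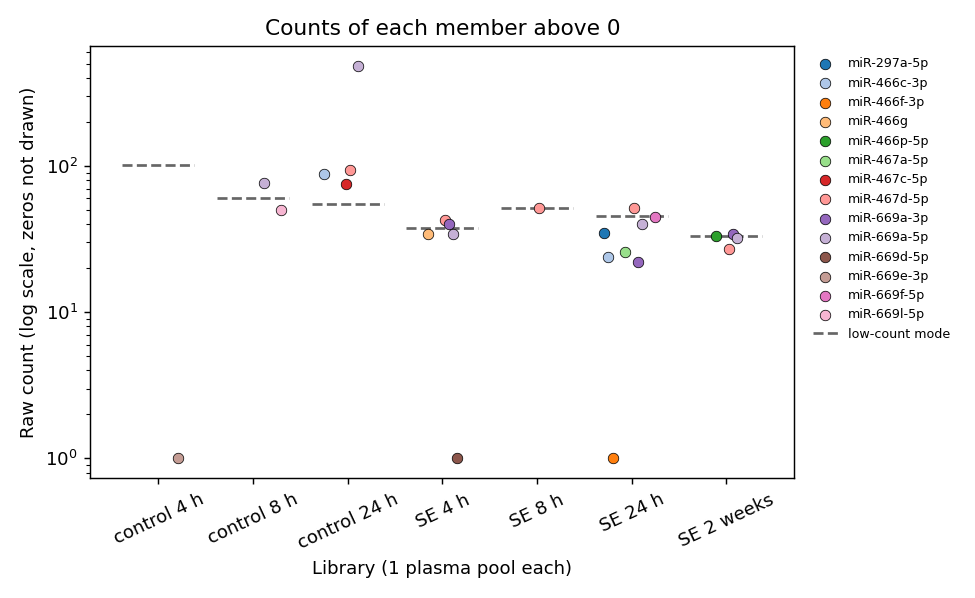
Raw counts of each member on a log scale in the 7 libraries, with zeros left out and the low-count mode of each library as a dashed line. Apart from 486 counts of miR-669a-5p in control 24 h and 3 single counts, the points lie between 0.487 and 1.71 times the dashed lines.

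By family, miR-669 held 861 counts in 6 members, miR-467 held 369 in 3, miR-466 held 180 in 4 and miR-297 held 35 in 1. The miR-669 sum was 1, 126 and 486 in control 4 h, 8 h and 24 h, and 75, 0, 107 and 66 in SE 4, 8 and 24 h and 2 weeks. For miR-467 it was 0, 0 and 169 in the control libraries in that order, and 43, 52, 78 and 27 in the SE libraries. For miR-466 it was 0, 0 and 88 in the control libraries and 34, 0, 25 and 33 in the SE libraries, and the 35 counts of miR-297 were all in SE 24 h. By arm, the 9 members named 5p held 1201 counts, the 4 named 3p held 210, and miR-466g, whose name gives no arm, held 34.

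miR-669a-5p was the most abundant member, with 668 counts (46.2% of the members' sum, 25.9% without control 24 h) and rank 169 of 640. Its counts were 0, 76 and 486 in control 4 h, 8 h and 24 h, and 34, 0, 40 and 32 in SE 4, 8 and 24 h and 2 weeks. The 486 counts in control 24 h stood far above the other 6 libraries, and the control and SE ranges overlapped. On TMM-normalised library sizes its level was 123 CPM in control 24 h and 17.6 CPM in control 8 h, against 7.99, 14.3 and 10.4 CPM in SE 4 h, 24 h and 2 weeks. The 0 counts in control 4 h and SE 8 h allow up to 3 counts, or 1.47 and 0.947 CPM of the library total, by counting error alone. The low-count modes of these libraries were far higher, at 50.1 and 16.4 CPM.

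miR-669a-5p was lower in the SE 24 h and SE 2 weeks libraries than in the control 24 h library. These single libraries were compared with the exact test of edgeR at a biological coefficient of variation (BCV) of 0.1. The filter of 50 CPM was passed only through control 24 h, so a call could only be lower. The direction of the call is therefore no separate evidence. At 24 h miR-669a-5p was 8.63-fold lower (log2 ratio -3.11, 95% counting interval -3.61 to -2.64), and it was the 1 member tested. Of 141 miRNAs tested at 24 h, 19.9% were called lower (past 1.5-fold at an unadjusted p under 0.05), with 28 lower and 35 higher. With library totals in place of TMM, 75 of 144 (52.1%) were called lower and 13 higher. At 2 weeks it was 11.9-fold lower (log2 ratio -3.57, -4.13 to -3.05) and again the 1 member tested, while 13.1% of 145 miRNAs were called lower. The other 13 members did not reach 50 CPM in either library and were not tested at these time-points. Against the 3 control libraries pooled, the edgeR log2 fold change of miR-669a-5p was smaller, at -2.03 at 24 h and -2.49 at 2 weeks. Control 24 h gave 486 of the 562 counts of this pool. The member again reached 50 CPM only on the control side, so its call as lower is no separate support. Against control 24 h alone, with library totals in place of TMM, the log2 fold change was -3.72 at 24 h. Both calls rest on the same control 24 h library. With control 4 h and 8 h pooled in its place, no member reached 50 CPM in either library, so 0 members were tested or called at 24 h and at 2 weeks. Of all miRNAs tested there, 50.7 and 48.7% were called. Each call of miR-669a-5p against control 24 h compares 2 libraries, not SE with control, and the pools give no measure of the spread between mice.

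At 4 h and 8 h no member reached 50 CPM, and 0 members were tested. miR-669a-5p had 34 counts in SE and 0 in control at 4 h, and 0 counts in SE and 76 in control at 8 h, which was 1.26 times the low-count mode of that control library. No fold is given for these pairs, since no member had a count above 1 and below 0.487 times the low-count mode of its library. Its 34 counts in SE 4 h were 6.29 CPM of the library total, below the low-count mode of control 4 h (50.1 CPM). Against the 3 control libraries pooled, in which control 24 h gave 486 of its 562 counts, it was called lower at 4 h, at 7.80 CPM against 57.0 CPM, where 17.1% of 152 miRNAs were called lower. It reached 50 CPM on the control side only, so this call could not have been higher. Against control 4 h alone, with 34 counts against 0, no direction is read. In pooled plasma, release from fewer cells and less miRNA per cell cannot be told apart.

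miR-467d-5p was the most widespread member with miR-669a-5p, each found in 5 of 7 libraries. It held 0, 0 and 94 counts in control 4 h, 8 h and 24 h, and 43, 52, 52 and 27 counts in SE 4, 8 and 24 h and 2 weeks. It was thus found in all 4 SE libraries and 1 of 3 control libraries, and its highest count was in that control library. At 8 h its 52 counts in SE were 16.4 CPM of the library total, beside a low-count mode of 17.1 CPM in control 8 h, and no fold is given against the 0 counts of control 4 h and 8 h. At 24 h the log2 ratio was -0.36 with a counting interval of -0.88 to 0.14, so no difference was detectable at this depth, and at 2 weeks it was -1.45 (-2.12 to -0.82). Its 4 values in SE libraries were 1.14, 1.00, 1.15 and 0.816 times the low-count mode at 4, 8 and 24 h and 2 weeks.

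miR-669a-3p, from the opposite arm of the miR-669a hairpins, was counted apart from miR-669a-5p. No other miRNA of the cluster was counted from both arms. It had 0 counts in all 3 control libraries, and 40, 0, 22 and 34 counts in SE 4, 8 and 24 h and 2 weeks. In control 24 h, where the 5p arm had 486 counts, the 3p arm thus had 0, whereas the 5p and 3p arms had 34 and 40 counts in SE 4 h, 40 and 22 in SE 24 h, and 32 and 34 in SE 2 weeks. Its values above 0 were 1.06, 0.487 and 1.03 times the low-count mode, and in CPM of the library total they were 7.40, 5.92 and 13.4, below the low-count modes of control 4 h (50.1 CPM) and control 24 h (16.1 CPM). No fold is given for it, and it was below the 50 CPM needed for testing in every library.

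miR-466c-3p had 88 counts in control 24 h and 24 in SE 24 h, a log2 ratio of -1.38 (-2.10 to -0.72), and 0 in the other 5 libraries. Its 2 values above 0 were 1.60 and 0.531 times the low-count mode, a limit that the counting interval does not cover. The remaining members were each found in 1 library. miR-467c-5p had 75 counts in control 24 h, and miR-669l-5p had 50 in control 8 h. In SE 24 h, miR-669f-5p had 45, miR-297a-5p had 35 and miR-467a-5p had 26 counts. miR-466g had 34 counts in SE 4 h, and miR-466p-5p had 33 in SE 2 weeks. A single count was found for miR-669d-5p in SE 4 h, miR-466f-3p in SE 24 h and miR-669e-3p in control 4 h, and that last one was the whole signal of the cluster in control 4 h. Of the 10 members found in 1 library, 3 were found in 1 of the 3 control libraries and 7 (70.0%) in 1 of the 4 SE libraries. Over all miRNAs, 218 were found in 1 library, and for 147 of them (67.4%) it was an SE library, so the split of the members was close to that of the whole table.

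The summed level of the cluster on TMM-normalised library sizes was lower in SE at 24 h and 2 weeks. No direction is read for it at 4 h or 8 h. At 4 h it was 35.7 normalised CPM in SE and 0.574 in control, a log2 ratio of 5.96, but with 1 count in the control library the counting interval ran from 3.46 to 11.27. All members together made up 28.1 CPM of the library total in SE 4 h, which was below the low-count mode of control 4 h. At 8 h it was 14.3 CPM in SE and 29.2 in control, a log2 ratio of -1.03 (-1.53 to -0.56). The SE 8 h sum was 16.4 CPM of the library total, below the low-count mode of control 8 h (17.1 CPM). At 24 h the summed level was 87.4 and 188 CPM, a log2 ratio of -1.11 (-1.32 to -0.90). At 2 weeks it was 40.8 and 188 CPM, a log2 ratio of -2.21 (-2.49 to -1.93). Without miR-669a-5p the log2 ratio changed sign at 8 h (0.30) and at 24 h (0.17), both with counting intervals that include 0. At 2 weeks the log2 ratio without this member was -1.10. The ratios also depended on the control library used. Against control 24 h the 4 h ratio was -2.40, and against control 8 h the ratios at 24 h and 2 weeks were 1.58 and 0.48. Over all miRNAs tested at 24 h the median log2 ratio was 0.04 with TMM and -0.64 with library totals alone, and with library totals the 24 h ratio of the cluster was -1.72.

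The 3 SE libraries of 4 h, 8 h and 24 h were also set against the 3 control libraries of the same time-points, which are different time-points and not replicates. The mean share was 0.00368% ± 0.00259 (SD, n = 3) in SE and 0.00846% ± 0.0117 (SD, n = 3) in control, a difference of -0.00478 percentage points (exact two-sided permutation p = 0.80; the smallest p this design allows is 0.10). The difference was smaller than the spread between control libraries, and SE shares lay within the control range. It rested on 1 time-point and 1 member: without 24 h it was 0.000418 and without miR-669a-5p 0.000114 percentage points, both of the opposite sign.

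In the fit across all miRNAs for the same 3 against 3 libraries, no member passed the filter of 50 CPM in at least 3 of 6 libraries, so 0 members were tested by the quasi-likelihood test of edgeR. That test called 0 of 137 miRNAs (0%) at a Benjamini-Hochberg adjusted p under 0.05, and 15 at an unadjusted p under 0.05, while DESeq2 called 4 of the 137 (2.92%). Without the 24 h pair the edgeR test called 5 of 145 miRNAs, with no member tested. When any count was enough, 13 members were tested and 0 called, against 3 of 605 miRNAs (0.496%), and 0 of the 13 had an unadjusted p under 0.05. For miR-669a-5p the edgeR log2 fold change was -2.70 with an adjusted p of 0.493. DESeq2 on the same 605 miRNAs, an alternative chosen after seeing the data, called 16 (2.64%). It called 0 of the 13 members. A p was given for 11 of them, 0 with an unadjusted p under 0.05, while miR-467c-5p and miR-466c-3p received none, and 11 of the 13 received no adjusted p.

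In the GRCm38 annotation, 71 hairpins with a name of these families lie within Sfmbt2 (chromosome 2, 10370510 to 10595253, plus strand). They all fall in intron 11 of 22 of its principal transcript, on the strand of the gene, in a span of 51.6 kb from 10466663 to 10518279. Of these, 29 are miR-669, 23 miR-466, 14 miR-467 and 5 miR-297 hairpins. Another 10 family hairpins lie elsewhere in the genome. The 71 hairpins carry 36 miRNA names, of which 13 were counted in plasma (14 members, since miR-669a has both arms). The other 23 were not among the miRNAs counted. Every member had at least 1 hairpin in the intron. For miR-297a a further hairpin lies on chromosome 7, from 10958437 to 10958512, and for miR-466f on chromosome 13, from 71107089 to 71107209, so their counts cannot be placed in Sfmbt2 alone.

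The arms of miR-669a share the largest number of hairpins among members, while their counts were 668 for miR-669a-5p and 96 for miR-669a-3p. miR-669a has 12, from 10474433 to 10510260, with a median of 2457 bases from one start to the next and 8 of 11 such steps between 2400 and 2500 bases. miR-467a has 10, from 10476346 to 10503355, with a median step of 2462 bases and 7 of 9 steps in that range. The counts of this pair were far apart, with 668 for miR-669a-5p and 26 for miR-467a-5p. miR-467d, which had the second highest sum, has a single hairpin from 10507630 to 10507714, and miR-467c has a single one from 10473931 to 10474027. miR-466c has 2, which start at 10481534 and 10483966. The counts of a miRNA with several hairpins cannot be divided among them.

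**Figure D3:**
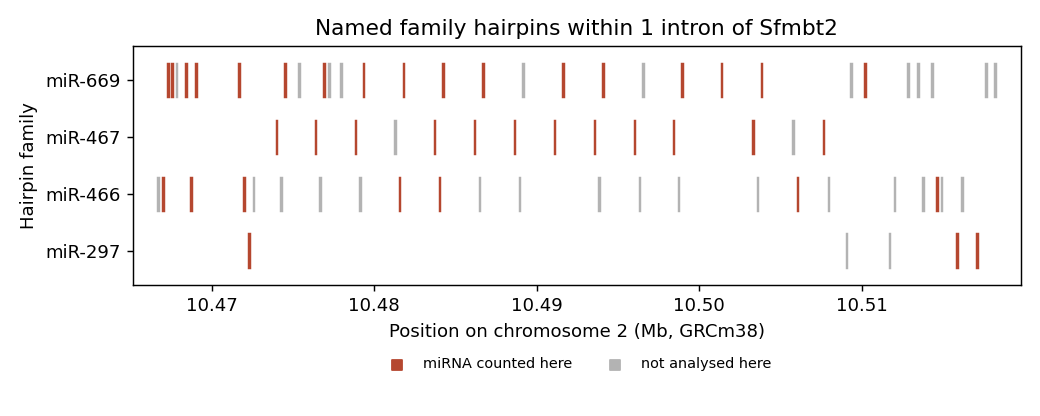
Named hairpins of the 4 families in intron 11 of Sfmbt2, by position on chromosome 2 (Mb, GRCm38) and by family, drawn to scale. Red marks hairpins of the 13 miRNA names counted in plasma and grey the other 23 names; miR-669a and miR-467a recur at median steps of 2457 and 2462 bases.

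Mature sequences from RefSeq (GRCm38.p6) were matched by name, and 0 of the 14 members had an entry. The table holds 8 relatives of the same families with hairpins outside Sfmbt2, none of which was among the miRNAs counted. A representative set is printed to show the repetitive letters that distinguish these families, with the seed (bases 2 to 8) in capitals. They come from chr3:85467396-85467418 (plus strand), chr13:17747552-17747573 (plus), chr11:69635419-69635439 (minus), chr9:115381898-115381919 (plus) and chr3:115979905-115979924 (plus), in this order.
miR-466k: uGUGUGUGuacauguacauguga
miR-466i-3p: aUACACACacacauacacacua
miR-467f: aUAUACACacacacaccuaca
miR-467h: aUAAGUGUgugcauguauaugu
miR-669n: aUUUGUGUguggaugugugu
Each of the 8 relatives holds UGUGUG or its reverse complement CACACA, searched on the mature strand, against 40 of 1679 mature miRNAs in the table (2.38%). All 8 seeds differ. The alignment of the authors allowed 2 mismatched nucleotides, so counts of members with near-identical sequences are uncertain as to which member they belong to.

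Other large clusters were described in the same way. The Dlk1-Dio3 cluster on chromosome 12, an imprinted locus rich in miRNAs expressed in brain, had 41 counted miRNAs and 28809 counts, and 13 of them reached 50 CPM. Its share was 0.189, 0.0877 and 0.0265% in control 4 h, 8 h and 24 h, and 0.154, 0.299, 0.0638 and 0.0310% in SE 4, 8 and 24 h and 2 weeks. In control 24 h the shares of both clusters were thus close (0.0265 and 0.0218%), whereas in the other 6 libraries that of Dlk1-Dio3 was higher. The chromosome X cluster next to Fmr1, known from testis, had 1 counted miRNA with 34 counts, all in SE 4 h. Sfmbt2 holds 48 further miRNA genes without a name of these families, and no other counted miRNA matched one of them by name. A gene whose symbol does not carry the name of its miRNA could not be matched in this way.

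Markers of blood and tissue sources were set beside the cluster as summed shares. Red cell miRNAs (5 of 5 counted, led by miR-486b-5p) held 76.4, 68.0 and 67.6% in control 4 h, 8 h and 24 h, and 67.9, 62.9, 76.5 and 63.7% in SE 4, 8 and 24 h and 2 weeks. White cell miRNAs (4 of 4, led by miR-142a-5p) held 0.386, 0.684 and 1.14% in the control libraries, and 0.567, 0.632, 0.683 and 1.17% in the SE libraries. They were high in control 24 h, as the cluster was, and as high in SE 2 weeks, where the cluster was not. Platelet and endothelial miRNAs (4 of 4, led by miR-221-3p) held 0.0620, 0.123 and 0.160% in control and 0.0830, 0.111, 0.0865 and 0.153% in SE libraries. Neuronal miRNAs (5 of 5, led by miR-128-3p) held 0.152, 0.195 and 0.268% in control and 0.151, 0.257, 0.151 and 0.245% in SE libraries, with control 24 h again the highest. Liver miRNAs (2 of 2, led by miR-192-5p) held 1.03, 1.64 and 1.67% in control and 1.63, 2.58, 1.56 and 1.85% in SE libraries. Of 3 muscle miRNAs, miR-1a-3p and miR-206-3p were not among the miRNAs counted, whereas miR-133a-3p was. Its share was 0.0758, 0.0969 and 0.00873% in control and 0.0869, 0.166, 0.0136 and 0.0141% in SE libraries. The part of these sources in the level of the cluster was not tested.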

How the data were processed

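Ago2-bound small RNA from 7 plasma pools was sequenced by the authors, who mapped reads with Chimera by BLASTn to mouse miRBase release 21, with up to 2 mismatches, and deposited raw counts per miRNA. How a read matching several miRNAs was assigned is not given in the sources used here. Here, counts were scaled by TMM over all 7 libraries for comparisons of single libraries. TMM was computed anew over the libraries of each quasi-likelihood fit. For edgeR calls against pooled controls it was computed over the pool and the SE libraries. Single libraries were compared with the exact test of edgeR 4.0.16 (BCV 0.1, at least 50 CPM in either library, 1.5-fold), and 3 SE with 3 control libraries with the quasi-likelihood test. DESeq2 1.42.0, R 4.3.3, Python 3.11.15 and scipy 1.17.1 were also used. Scripts were tested on simulated data. Shares have 95% Wilson intervals, ratios exact binomial counting intervals, and 0 counts a floor of 3. The low-count mode is that of a kernel density of ln counts from 6 to 300 (bandwidth 0.15). Members named were those at 50 CPM in any library, the 10 with most counts, any found in all 7 libraries, the 2 largest increases and decreases tested in each pair, miR-669a-5p, and all members of families described. Members and lists were chosen with earlier results of these data known. The planned comparison of members for near-identical sequences was not run.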

Additional observations from a re-analysis of the deposited data

Results flagged for a closer look

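The log2 ratio of the summed cluster level, SE over control, differed in sign between time-points. The log2 ratio was 5.96 at 4 h, against -1.03 at 8 h, -1.11 at 24 h and -2.21 at 2 weeks. The ratio at 4 h has 1 count in the control library, those at 24 h and 2 weeks share a control library, and the difference between time-points was not tested. No direction is read at 4 h, since the SE sum (28.1 CPM) was below the low-count mode of control 4 h (50.1 CPM). Nor is one read at 8 h, where the SE sum (16.4 CPM) was below the low-count mode of control 8 h (17.1 CPM).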

How the results depend on the processing

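With the 3 control libraries pooled, the log2 ratio of the summed level was -1.29, -2.61, 0.0062 and -1.09 at 4, 8 and 24 h and 2 weeks. Against control 4 h it was 4.64, 7.25 and 6.15 at 8 h, 24 h and 2 weeks, against control 8 h 0.29, 1.58 and 0.48 at 4 h, 24 h and 2 weeks, and against control 24 h -2.40 and -3.72 at 4 h and 8 h. Without miR-669a-5p it was 0.30, 0.17 and -1.10 at 8 h, 24 h and 2 weeks. Library totals gave -1.72 at 24 h. Counts divided by the low-count mode with no other scaling, an alternative chosen after seeing the data, gave 8.69, -1.06, -1.31 and -1.82 at 4, 8 and 24 h and 2 weeks. The cause of these shifts was not tested. Members called at 4, 8 and 24 h and 2 weeks numbered 4, 3, 7 and 6 when any count sufficed, where 72.3, 60.6, 63.3 and 56.7% of all miRNAs tested were called. They numbered 1, 3, 5 and 6 at 10 CPM, where 77.6, 65.6, 68.9 and 56.9% were called. More members were tested in both. With any count, 4, 1, 4 and 2 of the calls were higher and 0, 2, 3 and 4 lower in SE, beside 231, 155, 135 and 133 higher and 79, 102, 126 and 105 lower over all miRNAs, whose median log2 ratio at 4 h was 2.73. With pooled controls 1 was called, lower, at each of 4, 8 and 24 h and 2 weeks (17.1, 22.8, 20 and 19.7% of all miRNAs tested were lower). This was miR-669a-5p, which reached 50 CPM only on the control side. Without control 24 h, also chosen after seeing the data, 0 members were tested and 0 called at 24 h and 2 weeks. Of all miRNAs tested there, 50.7 and 48.7% were called. With BCV 0.4 miR-669a-5p was still called lower at 24 h and 2 weeks, where 7.80 and 3.45% of all miRNAs tested were lower. It passed the filter only through control 24 h, so these calls could not have been higher. The 3 against 3 difference in share ranged from -0.00856 to 0.000418 percentage points when 1 time-point was left out, was 0.000114 without miR-669a-5p, and was -0.0122 as a share of counts without miR-486b-5p. The mean number of members present was 3.57, and 0.143 at 50 CPM. The mean share was 0.00591%, 0.0187% of counts without miR-486b-5p and 0.00315% without miR-669a-5p. No member was called in 3 against 3 libraries in any of the 8 alternative fits, 6 of which tested no member. Restricting members to those with a hairpin in Sfmbt2 left all 14. The fit with time-point as a block, which pairs SE and control pools, called 0 of 137 miRNAs (20 at an unadjusted p under 0.05) and tested no member.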
